A study of Mus musculus with 16 samples.

Results

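The 10 genes used here as markers of blood vessels were followed through white and brown fat of control mice and of mice that lack the glucocorticoid receptor in adipose tissue. They were Pecam1, Cdh5, Emcn, Plvap, Vwf, Kdr, Flt1, Tek and Tie1, which mark endothelial cells, and Vegfa, a growth factor for them that adipocytes and other cells secrete. The genes were taken by name, through the RefSeq accession that the array gives for each probe, out of 19096 genes on the array. The 10 genes had 16 of its 41174 probes, and all 16 probes were well above background on all 16 arrays. All 10 genes therefore passed the filter on dim probes that left 15475 genes to be tested. Cdh5, Flt1 and Vwf had 2 probes each, Vegfa had 4, and the other genes had 1.

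The study measured total RNA of whole adipose tissue from male mice on 1-colour Agilent arrays, 4 for each of 4 groups. White control and brown control arrays came from wild-type mice. White knockout and brown knockout arrays came from mice with a knockout of the glucocorticoid receptor (gene Nr3c1) restricted to adipose tissue. Which cells of that tissue lost the gene, and whether endothelial cells did, cannot be told here. The strain, the age, the Cre driver and the fat depot are not given in the sources used here. Levels are given as log2 intensity relative to the 75th percentile of the same array, so a level of 0 equals that percentile, and levels of different probes are not compared with each other.

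The arrays and their labels were checked first. Arrays of the same group make 24 pairs, and in 9 of these the difference was smaller than the error that the scanner software gives, with ratios of 0.373 to 0.656, against 1.1 to 4.28 for the other pairs. The series' design text calls the arrays biological replicates, but arrays this close were averaged and counted as 1 sample. White control arrays 1 and 4 formed 1 sample and arrays 2 and 3 another. In both knockout groups array 1 stood alone and arrays 2 to 4 formed 1 sample, and in brown control arrays 2 and 3 formed 1 sample beside arrays 1 and 4. This gave 3 samples in brown control and 2 in each of the other groups, and the means ± SD below are over these. Nr3c1 had levels of 1.30 to 1.58 in white knockout against 2.08 to 2.49 in white control. In brown fat its levels were 1.57 to 1.83 in knockout against 2.34 to 2.70 in control. Where its probe lies relative to the deleted part is not given in the sources used here. Ucp1, the heat-producing uncoupling protein that defines brown fat, was at 6.61, -0.75, -0.75 and 8.13 on brown control arrays 1 to 4, at 5.70 to 5.92 on brown knockout arrays and at -2.44 to -0.84 on white arrays. Ucp1 was well above background on all 4 brown control arrays, but on arrays 2 and 3, which count as 1 sample, it was far below the other brown arrays. Cidea, another brown fat marker, was at 7.59, 2.88, 2.79 and 8.71 on brown control and 4.47 to 5.04 on white control arrays. The summed level of 10 such markers was 8.69 to 10.27 on brown control and 5.56 to 5.76 on white control arrays. The brightest genes weigh most in this sum, and over all arrays these were Cox8b and Cidea. The differences and calls of the 10 genes in brown fat are also given without brown control arrays 2 and 3. So are the calls of other genes between control tissues. Skeletal muscle markers were high on every array labelled brown. The part of muscle in the summed level of the brown fat markers was not tested, so that sum does not show how much brown fat arrays 2 and 3 held.

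Blood vessels are lined by endothelial cells, which in fat form a dense capillary bed that carries lipid, glucose and hormones to the adipocytes. These cells are held together by junction proteins, take up and release substances through fenestrae and vesicles, and are kept alive by vascular endothelial growth factor acting on its receptors and by angiopoietins acting on the Tie receptors. Glucocorticoids are known to act on vessel growth, and adipocytes are a main local source of vascular endothelial growth factor.

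White control fat had the highest mean of 8 of the 10 genes, and the knockout samples had lower means for most. In white fat 9 of 10 had a lower mean in the knockout, with a median log2 difference of -0.69 (all genes tested: -0.03, with 52.3% lower). In brown fat 8 of 10 had a lower mean in the knockout, with a median of -0.42 (all genes: -0.12, with 59.9% lower), although on the deposited values without scaling between arrays 4 of 10 were lower, where the median of all genes was 0.31. None of the 10 passed an adjusted p of 0.05 in either tissue with limma over the distinct samples, and 0% of all genes did. Between the tissues of control mice, Plvap and Pecam1 passed the threshold and were lower in brown fat, 2 of 10 genes against 5.07% of all genes. The plot of levels by array shows the 16 values of each gene.

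**Figure D1:**
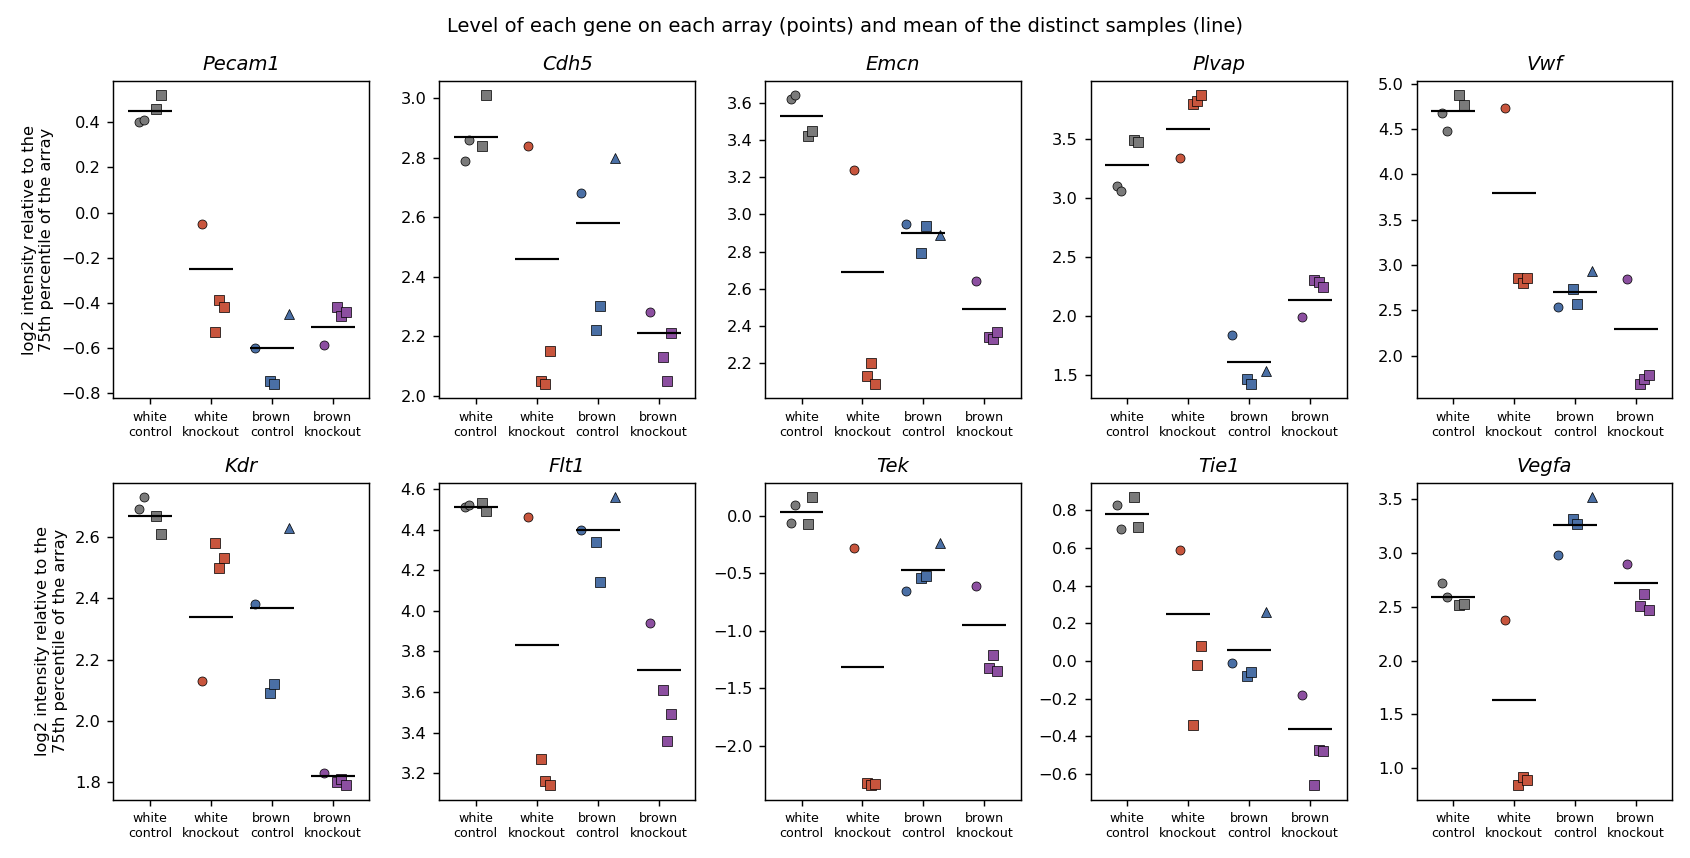
Level of each of the 10 genes (vertical axes, log2 intensity relative to the 75th percentile of the array; scales differ between panels) on every array of the 4 groups, with arrays counted as 1 sample sharing a symbol and the line at the mean of the samples. White knockout arrays 2 to 4 lie below array 1 for 8 of the 10 genes, and for Plvap and Kdr above it.

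Pecam1 encodes CD31, an adhesion protein at the contacts between endothelial cells. In white fat Pecam1 was at 0.40, 0.46, 0.52 and 0.41 on control arrays 1 to 4 and at -0.05, -0.53, -0.39 and -0.42 on knockout arrays 1 to 4. In brown fat Pecam1 was at -0.60, -0.75, -0.76 and -0.45 on control arrays and at -0.59, -0.42, -0.46 and -0.44 on knockout arrays. Every white control array was above every other array, and the arrays of the other 3 groups lay between -0.76 and -0.05. The white knockout mean was -0.25 ± 0.28 (SD, n = 2) against 0.45 ± 0.06 (SD, n = 2) in white control, a log2 difference of -0.70 ± 0.23 (SE), a level 38.2% lower, with an adjusted p of 0.448 (limma) and an unadjusted p of 0.0181. In brown fat the difference was 0.09 ± 0.21 (SE). Between control tissues Pecam1 was lower in brown fat by a log2 difference of -1.05 ± 0.21 (SE), or 2.07-fold, with an adjusted p of 0.0369 (limma). Leaving out any 1 control sample or either brown knockout sample put the adjusted p at 0.0569 to 0.279, with a difference of -0.97 and an adjusted p of 0.139 without brown control arrays 2 and 3.

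Cdh5 encodes VE-cadherin, the cadherin of endothelial junctions. In white fat Cdh5 was at 2.79, 2.84, 3.01 and 2.86 on control arrays and at 2.84, 2.05, 2.04 and 2.15 on knockout arrays. In brown fat Cdh5 was at 2.68, 2.22, 2.30 and 2.80 on control arrays and at 2.28, 2.13, 2.05 and 2.21 on knockout arrays. White knockout array 1 lay within the white controls and arrays 2 to 4 well below them. The log2 difference from control was -0.41 ± 0.31 (SE) in white fat and -0.37 ± 0.29 (SE) in brown fat, with adjusted p of 0.622 and 0.645 (limma). The other Cdh5 probe gave -1.14 ± 0.45 (SE) in white fat, a larger difference, and -0.52 ± 0.41 (SE) in brown fat.

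Emcn encodes endomucin, a sialomucin on the surface of capillary and venous endothelium. In white fat Emcn was at 3.62, 3.42, 3.45 and 3.64 on control arrays and at 3.24, 2.13, 2.20 and 2.09 on knockout arrays. In brown fat Emcn was at 2.95, 2.79, 2.94 and 2.89 on control arrays and at 2.64, 2.34, 2.33 and 2.37 on knockout arrays. In both tissues the knockout arrays were all under the controls, without overlap. The log2 difference was -0.84 ± 0.36 (SE) in white fat, a level 44.3% lower, with an adjusted p of 0.5 (limma) and an unadjusted p of 0.0489. In brown fat it was -0.41 ± 0.32 (SE), with an adjusted p of 0.651 (limma).

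Plvap forms the diaphragms of fenestrae and caveolae in endothelium that is open to exchange, and it had a higher mean in the knockout in both tissues, as Pecam1 did in brown fat. In white fat Plvap was at 3.10, 3.49, 3.48 and 3.06 on control arrays and at 3.34, 3.80, 3.82 and 3.87 on knockout arrays. In brown fat Plvap was at 1.84, 1.47, 1.43 and 1.54 on control arrays and at 1.99, 2.31, 2.29 and 2.25 on knockout arrays. All brown arrays were below all white arrays, and within brown fat every knockout array was above every control array. The log2 difference from control was 0.31 ± 0.28 (SE) in white fat and 0.53 ± 0.25 (SE) in brown fat, with adjusted p of 0.668 and 0.619 (limma). Between control tissues Plvap was lower in brown fat by a log2 difference of -1.67 ± 0.25 (SE), or 3.19-fold, with an adjusted p of 0.0147 (limma). Without brown control arrays 2 and 3 the difference was -1.60 with an adjusted p of 0.0644, and among knockouts it was -1.45 ± 0.28 (SE) with an adjusted p of 0.0611.

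Vwf encodes von Willebrand factor, the clotting protein that endothelial cells store in Weibel-Palade bodies. In white fat Vwf was at 4.68, 4.87, 4.76 and 4.48 on control arrays and at 4.73, 2.86, 2.80 and 2.86 on knockout arrays. In brown fat Vwf was at 2.53, 2.73, 2.57 and 2.93 on control arrays and at 2.84, 1.69, 1.74 and 1.78 on knockout arrays. In each tissue array 1 of the knockout lay within the range of the controls, and the low knockout mean came from arrays 2 to 4 alone. Their sample was 72.4% below the control mean in white fat, and with array 1 alone the difference was 0.034 in white and 0.14 in brown fat. Over both samples the log2 difference was -0.91 ± 0.62 (SE) in white and -0.41 ± 0.57 (SE) in brown fat, with adjusted p of 0.594 and 0.776 (limma). Between control tissues Vwf had the largest difference of the 10 genes, -1.99 ± 0.57 (SE), with an adjusted p of 0.0998 (limma) and no overlap of arrays. The other Vwf probe gave -2.13 ± 0.59 (SE).

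Kdr and Flt1 encode the receptors VEGFR2 and VEGFR1. The first is the main signalling receptor of vascular endothelial growth factor in endothelium, and the second binds the factor tightly with weak signalling and also exists as a soluble trap. Tek encodes Tie2, the receptor of the angiopoietins, and Tie1 its partner receptor. The 250 bases before the start of these 4 receptor genes are shown because their levels can be set against each other as pairs, Kdr with Flt1 and Tek with Tie1. They are from RefSeq for GRCm38.p6, 5′ to 3′ on the strand of the gene, at chr5:75978456-75978705 (minus strand) for Kdr, chr5:147726012-147726261 (minus) for Flt1, chr4:94739039-94739288 (plus) for Tek and chr4:118489850-118490099 (minus) for Tie1. Capitals mark GGAA or, for the other strand, TTCC, the core to which ETS factors bind, and in Tek also AGAACA, a glucocorticoid receptor half-site.
Kdr: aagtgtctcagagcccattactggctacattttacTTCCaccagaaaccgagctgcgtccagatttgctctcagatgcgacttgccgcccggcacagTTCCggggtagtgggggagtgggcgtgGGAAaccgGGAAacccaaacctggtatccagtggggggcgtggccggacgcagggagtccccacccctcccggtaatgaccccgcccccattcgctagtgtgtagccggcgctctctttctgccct
Flt1: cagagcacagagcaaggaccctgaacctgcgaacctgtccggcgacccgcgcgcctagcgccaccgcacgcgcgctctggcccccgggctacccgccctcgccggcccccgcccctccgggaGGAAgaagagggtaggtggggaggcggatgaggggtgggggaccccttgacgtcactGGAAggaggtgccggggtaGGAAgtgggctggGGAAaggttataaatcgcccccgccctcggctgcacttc
Tek: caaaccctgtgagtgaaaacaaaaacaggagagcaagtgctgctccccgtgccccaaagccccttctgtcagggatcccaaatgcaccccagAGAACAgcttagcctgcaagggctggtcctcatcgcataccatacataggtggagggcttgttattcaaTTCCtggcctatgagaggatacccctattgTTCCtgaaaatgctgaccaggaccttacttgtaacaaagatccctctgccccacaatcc
Tie1: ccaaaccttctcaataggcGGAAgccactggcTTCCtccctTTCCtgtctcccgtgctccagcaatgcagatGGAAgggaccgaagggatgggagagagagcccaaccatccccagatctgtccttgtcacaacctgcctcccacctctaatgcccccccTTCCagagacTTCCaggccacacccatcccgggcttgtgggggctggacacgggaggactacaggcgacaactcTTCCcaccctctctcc

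The ETS core was found 4 times each in the Kdr and Flt1 windows, 2 times in Tek and 7 times in Tie1. It is short, and 93.4% of all 32851 windows of 250 bases held it on at least 1 strand. AGAACA, searched on both strands, was found in the Tek window and in none of the other 6 windows of the 10 genes, and 16.1% of all windows held it. The windows covered 6 of the 10 genes, with 2 for Vegfa. These are matches of letters and no binding was measured.

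In white fat Kdr was at 2.69, 2.67, 2.61 and 2.73 on control arrays and at 2.13, 2.58, 2.50 and 2.53 on knockout arrays. In brown fat Kdr was at 2.38, 2.09, 2.12 and 2.63 on control arrays and at 1.83, 1.80, 1.81 and 1.79 on knockout arrays. Within each tissue the knockout arrays were all lower than the controls, and the 4 brown knockout arrays were nearly identical. The log2 difference was -0.34 ± 0.25 (SE) in white fat and -0.56 ± 0.23 (SE) in brown fat, a level 32.1% lower, with adjusted p of 0.617 and 0.619 (limma) and an unadjusted p of 0.0447 in brown fat. Without brown knockout array 1 or without arrays 2 to 4 the brown difference was -0.57 or -0.55, nearly the same in both samples.

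In white fat Flt1 was at 4.51, 4.53, 4.49 and 4.52 on control arrays and at 4.46, 3.27, 3.16 and 3.14 on knockout arrays. In brown fat Flt1 was at 4.40, 4.34, 4.14 and 4.56 on control arrays and at 3.94, 3.61, 3.36 and 3.49 on knockout arrays. White control arrays were nearly identical, knockout array 1 lay just under them and arrays 2 to 4 far under them. The log2 difference was -0.69 ± 0.41 (SE) in white and -0.69 ± 0.37 (SE) in brown fat, with adjusted p of 0.561 and 0.619 (limma), and the other Flt1 probe gave -0.72 ± 0.39 (SE) and -0.57 ± 0.35 (SE).

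The balance of Kdr to Flt1 was read as the difference of their levels on 1 array, which has no meaning by itself but can be compared between arrays. It was -1.82, -1.87, -1.88 and -1.79 on white control arrays and -2.33, -0.69, -0.67 and -0.60 on white knockout arrays. The knockout arrays thus lay on both sides of the controls, with array 1 below and arrays 2 to 4 above. In brown fat it was -2.02, -2.25, -2.02 and -1.92 on control arrays and -2.11, -1.80, -1.56 and -1.70 on knockout arrays. These differences were not tested.

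In white fat Tek was at -0.06, -0.07, 0.16 and 0.09 on control arrays and at -0.28, -2.32, -2.34 and -2.33 on knockout arrays. In brown fat Tek was at -0.65, -0.54, -0.52 and -0.24 on control arrays and at -0.61, -1.32, -1.21 and -1.35 on knockout arrays. In white fat all knockout arrays were below all controls, and the sample of arrays 2 to 4 was 80.5% below the control mean, the lowest value of any of the 10 genes. The log2 difference was -1.34 ± 0.61 (SE) in white fat, with an adjusted p of 0.509 (limma), and -0.31 with array 1 alone. In brown fat it was -0.48 ± 0.56 (SE), with an adjusted p of 0.737 (limma).

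In white fat Tie1 was at 0.83, 0.87, 0.71 and 0.70 on control arrays and at 0.59, -0.34, -0.02 and 0.08 on knockout arrays. In brown fat Tie1 was at -0.01, -0.08, -0.06 and 0.26 on control arrays and at -0.18, -0.66, -0.47 and -0.48 on knockout arrays. In each tissue the groups did not overlap, with the knockout lower. The log2 difference was -0.53 ± 0.29 (SE) in white fat and -0.42 ± 0.26 (SE) in brown fat, with adjusted p of 0.542 and 0.619 (limma). Between control tissues it was -0.71 ± 0.26 (SE), with no overlap and an adjusted p of 0.168 (limma).

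The level of Tie1 minus that of Tek was 0.88, 0.94, 0.55 and 0.61 on white control arrays and 0.87, 1.98, 2.32 and 2.41 on white knockout arrays. On arrays 2 to 4 Tek was thus further below the controls than Tie1 was, while array 1 lay within the controls. In brown fat the difference was 0.46 to 0.65 on control arrays and 0.43 to 0.87 on knockout arrays, and these overlapped.

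Vegfa, the ligand of Kdr and Flt1, had its own order of groups. In white fat Vegfa was at 2.72, 2.52, 2.53 and 2.59 on control arrays and at 2.38, 0.84, 0.92 and 0.89 on knockout arrays. In brown fat Vegfa was at 2.98, 3.32, 3.27 and 3.52 on control arrays and at 2.90, 2.51, 2.62 and 2.47 on knockout arrays. Every brown control array was above every white array, and in each tissue all knockout arrays were below all controls for the brightest of its 4 probes. On the 3 other Vegfa probes knockout and control overlapped in both tissues, and on 2 of them so did brown control and white arrays. The log2 difference from control was -0.96 ± 0.47 (SE) in white and -0.55 ± 0.43 (SE) in brown fat, with adjusted p of 0.526 and 0.651 (limma). The 3 other Vegfa probes gave -0.48 to -0.89 in white and -0.27 to -0.68 in brown fat. Brown against white, the probe used gave 0.67 ± 0.43 (SE) in controls and 1.09 ± 0.47 (SE) in knockouts, with adjusted p of 0.389 and 0.334 (limma), and the other probes gave 0.11 to 0.65 and 0.39 to 0.73.

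In white fat, then, 7 of the 10 genes had all 4 knockout arrays below all 4 control arrays (Pecam1, Emcn, Kdr, Flt1, Tek, Tie1 and Vegfa), where 18.3% of all genes did, and none had all above. The other probes of Flt1 and Vegfa overlapped, and the other Cdh5 probe did not. Adjusted p ran from 0.448 to 0.668 over the 10 genes, and 2 of 10 had an unadjusted p under 0.05, against 9.95% of all genes. With the 16 arrays as separate samples limma called 9 of 10 genes, all but Kdr, with Plvap higher and the others lower. It called 44.8% of all genes there, and 25.5% lower. The size of the difference depended on the sample. The median of the 10 genes against the control mean was -0.20 on knockout array 1, with 8 of 10 below it, and -1.11 in the sample of arrays 2 to 4, with 9 of 10 below it, while the medians of all genes were -0.06 and -0.08. Without array 1, when the remaining sample is assumed to vary as the other groups do, limma called Flt1, Tek, Emcn and Vegfa with adjusted p of 0.0293 to 0.04, and 11% of all genes. Within the 1 slide that holds both white groups the median was -0.70 and 9 of 10 were lower, with adjusted p from 0.0749 to 0.47 (limma). That fit took all 16 arrays as separate samples, so its adjusted p cannot be set beside those of the distinct samples. The plot of each sample against the control mean shows this gene by gene.

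**Figure D2:**
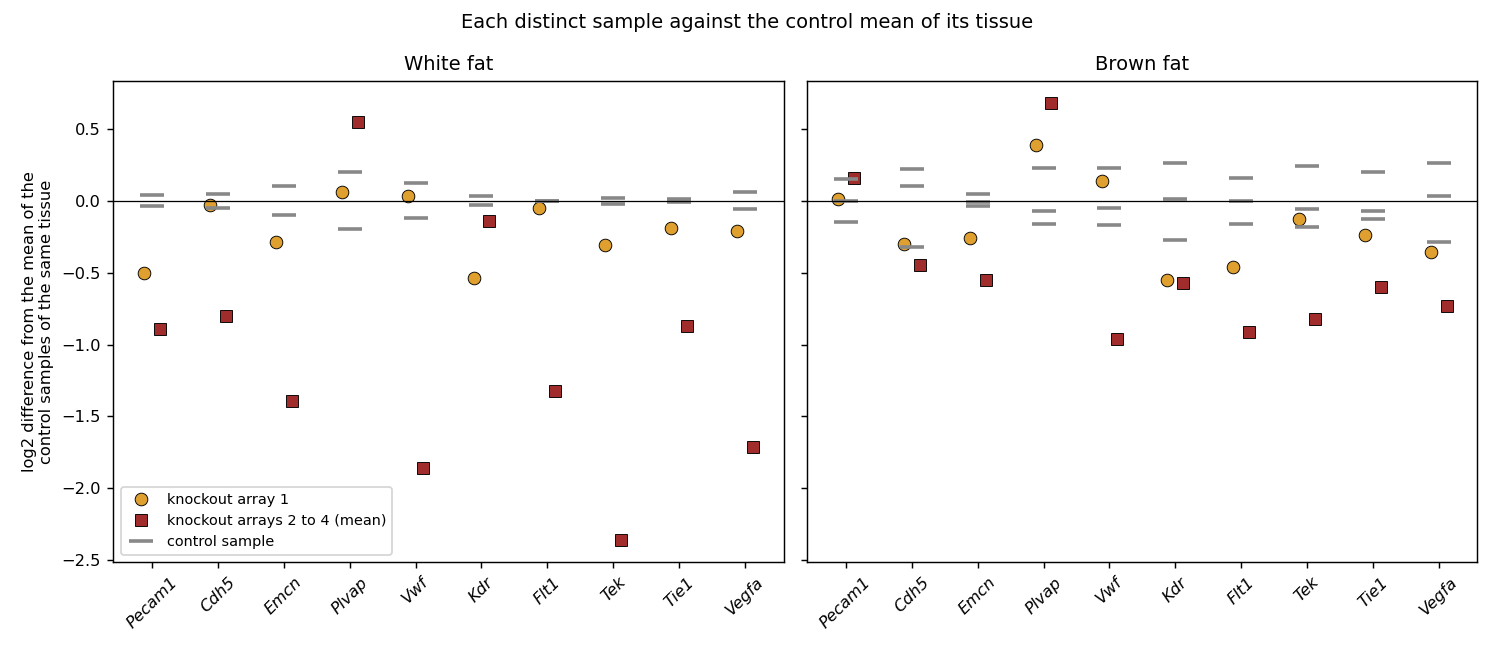
Log2 difference of each distinct sample from the mean of the control samples of its tissue (vertical axis) for the 10 genes, with control samples as grey bars, knockout array 1 as circles and the mean of knockout arrays 2 to 4 as squares. In white fat the squares lie at -0.80 or lower for 8 genes, with Kdr at -0.14 and Plvap at 0.55, while the circles lie between -0.54 and 0.06.

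RNA of whole tissue does not tell fewer endothelial cells from less RNA per cell, so these cannot be told apart here. Markers of other cells also moved with the sample of white knockout arrays 2 to 4. Lymphocyte markers (T, B and NK) had a median of 2.88 above the control mean there and of -0.87 on array 1. Their summed level ranged from 3.94 to 7.89 over white knockout and from 3.30 to 5.58 over white control arrays. Of these markers 18 of 19 had a higher mean in the knockout, and none was under background on all arrays of either group. Adipocyte markers were at -0.19 on array 1 and -1.79 in the sample of arrays 2 to 4, with 17 of 17 lower in the knockout and a summed level of 10.41 to 11.45 against 11.38 to 11.74. Mesothelial markers were at 0.06 and -3.62 (9 of 9 lower, summed level 1.07 to 4.84 against 4.14 to 5.09), and erythroid markers at -0.75 and -2.54 (4 of 4 lower, 5.48 to 7.30 against 7.99 to 8.14). Proliferation genes were at -0.56 and 2.95 (9 of 10 higher, 2.24 to 5.55 against 2.11 to 3.16), progenitor and fibroblast markers at -0.35 and -1.36 (8 of 10 lower, 7.16 to 8.13 against 8.27 to 8.48), and macrophage markers at -0.73 and 0.25 (10 of 14 lower, 5.36 to 6.46 against 5.96 to 6.21). Skeletal muscle markers were at -0.36 and 1.68 (12 of 14 higher, 3.62 to 3.76 against 2.12 to 2.70). None of these lists had a gene past the threshold in white knockout. Their part in the levels of the 10 genes was not tested.

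**Figure D3:**
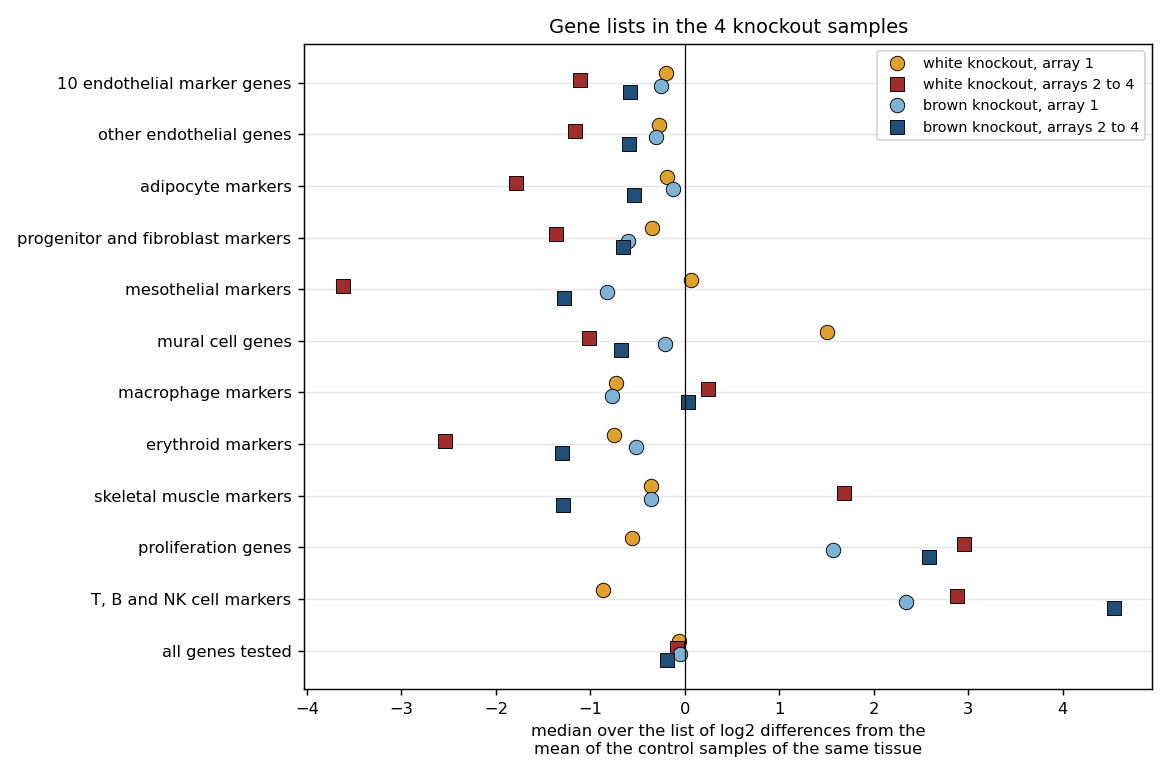
Median over each gene list of the log2 difference from the control mean of the same tissue (horizontal axis) in the 4 knockout samples. The 10 endothelial marker genes lie at -0.20 and -1.11 in white and -0.25 and -0.58 in brown fat, and the T, B and NK cell markers at -0.87 and 2.88 in white and 2.34 and 4.54 in brown fat.

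In brown fat 5 of the 10 genes had all knockout arrays below all control arrays (Emcn, Kdr, Flt1, Tie1 and Vegfa), where 16.5% of all genes did, and Plvap had all above, where 11.4% did. Adjusted p ran from 0.619 to 0.875 (limma), and Kdr was the 1 gene with an unadjusted p under 0.05, against 7.04% of all genes. With the 16 arrays as separate samples limma called 4 of 10 genes (Plvap higher, and Kdr, Flt1 and Tie1 lower), where it called 30.6% of all genes and 17.8% lower. The median of the 10 genes was -0.25 on array 1 and -0.58 in the sample of arrays 2 to 4, against -0.05 and -0.19 for all genes. Leaving out brown control arrays 2 and 3 gave a median of -0.49 with 8 of 10 lower and no call. The differences were then 0.01 for Pecam1, 0.45 for Plvap, -0.54 for Cdh5, -0.43 for Emcn and -0.44 for Vwf. They were -0.69 for Kdr, -0.76 for Flt1, -0.50 for Tek, -0.48 for Tie1 and -0.53 for Vegfa, with adjusted p of 0.838 to 0.992 over the 10 genes (limma). Within the slide that holds both brown groups the median was -0.50, with adjusted p from 0.252 to 0.778 (limma), again with the 16 arrays as separate samples. Lymphocyte markers (T, B and NK) stood at 2.34 on array 1 and 4.54 in the sample of arrays 2 to 4 (17 of 19 higher, summed level 5.35 to 7.35 against 1.29 to 5.34 in brown control). Skeletal muscle markers were at -0.36 and -1.29 (14 of 14 lower, 11.07 to 11.82 against 11.96 to 12.32), adipocyte markers at -0.12 and -0.54 (17 of 17 lower, but 8 of 17 with quantile normalization and 4 of 17 unscaled, summed level 10.71 to 11.08 against 10.99 to 11.39) and proliferation genes at 1.57 and 2.58 (9 of 10 higher, 3.28 to 4.37 against 1.54 to 2.22). Erythroid markers were at -0.52 and -1.30 (4 of 4 lower, 5.71 to 6.53 against 6.30 to 7.76), and progenitor and fibroblast markers at -0.60 and -0.65 (7 of 10 lower, 7.14 to 7.32 against 7.72 to 8.09). Mesothelial markers were at -0.82 and -1.28 (7 of 9 lower, 3.30 to 5.88 against 3.23 to 5.75, with Upk3b, Upk1b, Wt1 and Bnc1 not above background on any brown knockout array). Macrophage markers were at -0.77 and 0.03 (11 of 14 lower, or 6 of 14 unscaled, 4.05 to 4.92 against 4.57 to 5.09). No gene of these lists passed the threshold in brown knockout, and their part was not tested.

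Whether the knockout differed between the tissues was tested as the difference of the 2 effects. None of the 10 genes passed (0% of all genes), and all adjusted p were 1 (limma). Kdr had a lower and the other 9 genes a higher difference in brown than in white fat, where 48.9% of all genes had a lower one, with Flt1 at 0.00 ± 0.55 (SE), and the median was 0.32 against 0.01 for all genes. The direction of the median rested on 1 sample, since it was -0.198 without white knockout arrays 2 to 4 and 0.808 without array 1. Pecam1 came closest, with 0.78 ± 0.31 (SE) and an unadjusted p of 0.0383, where 2.6% of all genes had one under 0.05. Both white knockout samples were below the control mean for Pecam1, by 29.1% and 46.2%, and both brown ones were at or above it, at 0.01 and 0.16. With the 16 arrays as separate samples Pecam1 alone was called, with a difference of 0.96 and an adjusted p of 0.0123 (limma), where 4.14% of all genes were.

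Between the tissues of control mice 9 of the 10 genes had a lower mean in brown fat, with a median log2 difference of -0.57 (all genes -0.09, with 55.2% lower). Plvap and Pecam1 were called, both lower, where 1.14% of all genes were called lower and 3.93% higher. Together with Vwf and Tie1 they made 4 of 10 with an unadjusted p under 0.05, against 22.8% of all genes. With the 16 arrays as separate samples limma called 6 of 10 lower (those 4, Kdr and Emcn), where it called 39.3% of all genes and 19.6% lower. All brown control arrays were below all white control arrays for 6 of 10 genes (Pecam1, Plvap, Tek, Tie1, Vwf and Emcn), where 26.2% of all genes were, and Vegfa had all above, where 22.1% did. Leaving out brown control arrays 2 and 3 left 9 of 10 lower, a median of -0.54 and no call, where 1.95% of all genes were called. The differences were then -0.61 for Emcn, -1.97 for Vwf (adjusted p 0.27, limma), -0.65 for Tie1 (adjusted p 0.404) and -0.48 for Tek. They were -0.13 for Cdh5, -0.16 for Kdr, -0.03 for Flt1 and 0.66 for Vegfa, beside the values of Plvap and Pecam1 given above. Leaving out white control arrays 1 and 4, or arrays 2 and 3, also left no call, with Plvap at an adjusted p of 0.0865 or 0.163 (limma). The white and brown control arrays share no slide, and with slide as a fixed block over the 16 arrays Plvap was at -1.89 with an adjusted p of 0.0105 and Pecam1 at -1.03 with an adjusted p of 0.0556 (limma).

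Among knockout mice 8 of 10 genes had a lower mean in brown fat, with a median of -0.26 (all genes -0.04, with 53.3% lower), although 4 of 10 did on unscaled values. Plvap and Kdr had all brown arrays below all white arrays, where 13.5% of all genes did, and Vegfa had all above, where 13% did. No gene of the 10 was called (limma), where 1.51% of all genes were, and 2 of 10 (Plvap and Vwf) had an unadjusted p under 0.05, against 15.3%. The fit to 16 separate arrays called Plvap, Kdr, Tie1 and Vwf lower and Vegfa higher, 5 of 10, against 25.7% of all genes. The median turned to 0.03 without white knockout array 1, with 5 of 10 lower, and was -0.71 without the sample of arrays 2 to 4, with 9 of 10 lower. The plot of brown against white differences shows both genotypes side by side.

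**Figure D4:**
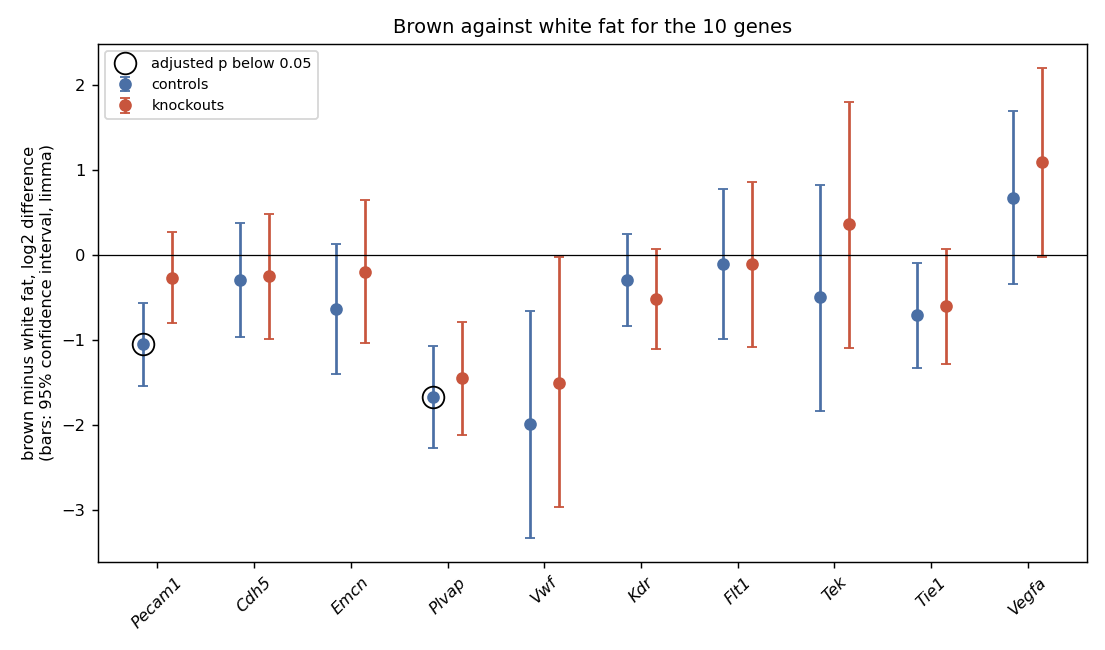
Log2 difference of brown minus white fat (vertical axis) for each of the 10 genes in controls and in knockouts, with 95% confidence intervals from limma and rings around the differences that passed an adjusted p of 0.05. In controls Plvap lies at -1.67 (-2.27 to -1.07) and Pecam1 at -1.05 (-1.54 to -0.56), and Vegfa is the gene above 0 in both genotypes with its intervals reaching below 0.

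Other tissue markers differed between brown and white controls as well, where 1.14% of all genes were called lower and 3.93% higher. All 14 skeletal muscle markers passed the threshold and were higher in brown fat, with a median log2 difference of 10.84 and a summed level of 11.96 to 12.32 on brown against 2.12 to 2.70 on white control arrays. Of 10 brown adipocyte thermogenic markers 10 had a higher mean and 2 passed (median 3.12, summed level 8.69 to 10.27 against 5.56 to 5.76, with Zic1 not above background on any white control array). Of 14 macrophage markers 14 had a lower mean and 2 passed (median -1.18, summed level 4.57 to 5.09 against 5.96 to 6.21). Of 9 mesothelial markers 7 had a lower mean and 5 passed (median -5.08, summed level 3.23 to 5.75 against 4.14 to 5.09, with Upk1b not above background on any brown control array). Upk1b was not above background on any brown knockout array either, and so passed the filter on dim probes only through white arrays. Its difference, and any call of it, is thus partly set by the filter. The sizes of the Upk1b and Zic1 differences are uncertain. Lymphocyte markers (T, B and NK) had a lower mean for 17 of 19 (median -1.62, summed level 1.29 to 5.34 against 3.30 to 5.58) and proliferation genes for 10 of 10 (median -0.83, 1.54 to 2.22 against 2.11 to 3.16), with no call. Without brown control arrays 2 and 3 the calls were 14 muscle, 5 thermogenic, 0 macrophage and 1 mesothelial (Wt1), where 1.95% of all genes were called. The part of these cells in the levels of the 10 genes was not tested.

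A list of 30 other endothelial genes, of which 29 were tested, was read in the same way. In white knockout 24 of 29 had a lower mean (median -0.64) and in brown knockout 25 of 29 (median -0.43), or 14 of 29 on unscaled values, with no call in either. An unadjusted p under 0.05 was found for 7 and 5 of them, where 9.95% and 7.04% of all genes had one. The smallest p in white fat were those of Apln, the ligand apelin, at -1.35 ± 0.33 (SE) with an adjusted p of 0.394, and of Cldn5, the main claudin of endothelial tight junctions, at -0.75 ± 0.23 (SE) with an adjusted p of 0.435 (limma). In brown fat they were those of Cldn5, at -0.87 ± 0.21 (SE), and of Aplnr, the apelin receptor, at -0.79 ± 0.24 (SE), both with an adjusted p of 0.619 (limma). On knockout array 1 alone the median of the list was -0.27 (white) and -0.31 (brown), and in the samples of arrays 2 to 4 it was -1.16 and -0.59.

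Between control tissues 28 of the 29 had a lower mean in brown fat (median -0.68), and 2 passed, where 1.14% of all genes were called lower. Cldn5 was lower by a log2 difference of -1.06 ± 0.21 (SE), with an adjusted p of 0.0368 (limma). Bmx, a kinase of arterial endothelium, was at least 3.55-fold lower, a bound because it was not well above background on any brown array. It passed the filter on dim probes only through white control, the group where it was high, so its call is partly set by the filter. Its adjusted p of 0.0472 (limma) was computed on brown levels that were not well above background. For the bound, the level of Bmx on a brown array was replaced by the dimmest signal well above background there wherever it lay under that signal. Leaving out brown control arrays 2 and 3 left 28 of 29 lower (median -0.61) and no call, with Cldn5 at an adjusted p of 0.111 and Bmx at 0.155 (limma). Among knockouts 21 of 29 had a lower mean (median -0.35), or 16 of 29 without white knockout array 1, with no call.

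The other ligands, receptors and coreceptors of the VEGF system were 7 genes, all tested. None was called in a knockout comparison, where 4 of 7 had a lower mean in white fat (median -0.31) and 7 of 7 in brown fat (median -0.27), or 3 of 7 in brown fat on unscaled values. An unadjusted p under 0.05 was found for 0 and 1 of the 7, against 9.95% and 7.04% of all genes. Vegfb, a ligand of Flt1, was at -0.94 ± 0.42 (SE) in white and -0.73 ± 0.38 (SE) in brown knockout, with adjusted p of 0.505 and 0.619 (limma). Pgf, placental growth factor, was at -0.54 ± 0.21 (SE) in brown knockout with an adjusted p of 0.619. Between control tissues 2 of 7 passed and were lower in brown fat, where 1.14% of all genes were called lower. These were Vegfc, the lymphatic growth factor, at -1.15 ± 0.21 (SE) with an adjusted p of 0.0266, and its receptor Flt4 at -1.59 ± 0.31 (SE) with an adjusted p of 0.0335 (limma). Neither was called without brown control arrays 2 and 3, with -1.20 and an adjusted p of 0.0856 for Vegfc and -1.43 and 0.118 for Flt4.

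Of 6 angiopoietins and partners of the Tie receptors none was called, and in the knockout comparisons 1 (white) and 0 (brown) had an unadjusted p under 0.05, against 9.95% and 7.04% of all genes. In white knockout 5 of 6 had a lower mean (median -0.71). Among them Angpt2, the ligand that antagonises Tek in many settings, was at -0.90 ± 0.26 (SE) with an adjusted p of 0.425 (limma). The agonist ligand Angpt1 was at -0.89 ± 0.55 (SE) with an adjusted p of 0.566 (limma). Angpt1 was well above background on 4 white control arrays but on only 1 white knockout array, so the size of its difference is uncertain. In brown knockout 4 of 6 had a lower mean (median -0.43), or 3 of 6 on unscaled values. Foxo1 had the smallest p there and was higher, at 0.58 ± 0.26 (SE) with an adjusted p of 0.619 (limma). Next came Ptprb, the phosphatase VE-PTP that acts on Tek, at -0.61 ± 0.40 (SE) with an adjusted p of 0.622 (limma). Between control tissues 5 of 6 had a lower mean in brown fat (median -0.83), and Angpt2, at -1.07 ± 0.23 (SE), had an adjusted p of 0.05 (limma), which did not fall below the threshold.

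Since low oxygen is a known inducer of Vegfa, 16 hypoxia response genes were read beside it, of which 15 were tested. In white knockout 11 of 15 had a lower mean (median -0.29) and in brown knockout 12 of 15 (median -0.47), or 8 of 15 on unscaled values, with no call and an unadjusted p under 0.05 for 2 and 3 genes, against 9.95% and 7.04% of all genes. The smallest p in white fat were those of the glycolytic enzyme Ldha, at 0.501 times its control level with an adjusted p of 0.386, and of Pdk1, which restrains pyruvate oxidation, at 0.454 times with an adjusted p of 0.414 (limma). In brown fat Pgk1 was at -0.81 ± 0.23 (SE) and Ldha at -0.66 ± 0.21 (SE), both with an adjusted p of 0.619 (limma). Brown control fat had a higher mean than white for 11 of 15 (median 0.42), as it had for Vegfa. Skeletal muscle markers were also high on the brown arrays, and their part in this was not tested. Pgk1, another glycolytic enzyme, alone passed, 3.95-fold higher in brown controls with an adjusted p of 0.00477 (limma). In brown knockouts it was 2.76-fold higher with an adjusted p of 0.0455 (limma). Of all genes 3.93% were called higher in brown controls and 1.29% in brown knockouts. Pgk1 was also called in controls without brown control arrays 2 and 3, at 1.87 with an adjusted p of 0.0247 (limma), where 1.95% of all genes were called.

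The 10 genes were also compared by their pattern over the 9 samples, as a description, since the samples share group, slide and the scaling of each array. Against the mean of the other endothelial markers, Pearson's r was 0.986 for Tie1, 0.935 for Vwf, 0.887 for Emcn, 0.865 for Pecam1 and 0.86 for Cdh5. It was 0.654 for Flt1, 0.601 for Tek and 0.563 for Kdr, and lowest for Plvap at 0.298 and for Vegfa at 0.0587. Of all other genes tested, those whose pattern was most like the mean of the 9 endothelial markers were Kctd17 (r = 0.988), Fgf18 (0.984), Kctd12b and Npdc1 (both 0.982), Rras (0.981) and Afap1l2 (0.98). Genes with a pattern much like that of Vegfa were Smim10l1 (0.988), Lypla1 (0.987) and Pyurf (0.985).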

How the data were processed

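RNA was labelled with Cy3 and hybridised, per the labels' protocols. The deposited scanner files hold spot intensity, linear, background-subtracted and detrended within arrays by Agilent Feature Extraction 12.0.0.7 and not scaled between arrays, per the file headers. The authors' deposited table of intensity equals these values (99.87% within a relative 0.0001). Each array had 43379 spots that are not controls, 67.3% to 77.0% of them well above background and 0 saturated. Precision is limited by how many arrays there are.

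Control and outlier spots were left out, spots of a probe were averaged, and values are log2 processed signal minus the 75th percentile of the array. RefSeq accessions, matched to GRCm38.p6 tables, named 28223 of 41174 probes. The array design uses another assembly, so probes have no coordinates. Kept probes were well above background throughout at least 1 group of 4 arrays, and the brightest kept probe stood for a gene. Arrays of a group were averaged into 1 sample if the median absolute deviation of their differences, over 10067 probes with a mean above the 75th percentile, was under 1 times the scanner's error. Distinct animals as alike as this would be merged too, and in Glycam1 white control arrays 1 and 4 differed (-3.43 and -0.80) although they were merged.

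The 9 samples were fitted with limma 3.58.1 (R 4.3.3) with a mean per group and 5 residual degrees of freedom. P-values were adjusted by Benjamini-Hochberg over 15475 genes, with a threshold of 0.05. The groups share array numbers, which no label ties to an animal or litter, so pairing by number was an alternative. The alternatives were the 16 arrays as separate samples, replicate and slide blocks, normexp background (on median signals, since the files hold no mean signal), quantile and no scaling, the filter, the probe rule and leaving out samples. Named genes are the 10 markers, up to 4 genes of each related list past the threshold or the 2 with the smallest p, and the 6 and 4 most alike genes, of which 1 is not reported here. Genes and lists were chosen with earlier results of these data known.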

Additional observations from a re-analysis of the deposited data

How the results depend on the processing

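How arrays are counted decided most. With the 16 arrays as separate samples, and alike with the replicate block or with slide as a random block added, 9 of the 10 genes were called in white knockout, 4 in brown knockout, 6 between control tissues, 5 between knockout tissues and 1 in the difference of effects, against 0, 0, 2, 0 and 0 over the distinct samples. In the same order the 16 separate arrays called 44.8%, 30.6%, 39.3%, 25.7% and 4.14% of all genes. The distinct samples called 0%, 0%, 5.07%, 1.51% and 0% of all genes. The replicate block among knockout samples, which paired the tissues by array number, called 2 between knockout tissues and 3 between control tissues. Deviations of same-numbered knockout arrays correlated between the tissues (r from 0.295 to 0.57), but with 2 distinct samples a group these are 1 contrast and show no pairing. Slide as a fixed block called 1 and 1, and 0 in the knockout comparisons. Between control tissues 1 gene, Plvap, was called with normexp background or no filter on dim probes, with Pecam1 at adjusted p of 0.0566 and 0.0508, and 0 with the white control arrays counted as 1 sample, an alternative chosen after seeing the data. Leaving out 1 sample at a time called 0 to 4 genes in white knockout, 0 to 3 between control tissues and 0 to 2 between knockout tissues. The 4 in white knockout (Flt1, Tek, Emcn and Vegfa) came without array 1. Without the knockout arrays 2 to 4 of both tissues 1 gene, Vwf, was called between knockout tissues, with 1 sample left in each knockout group, assumed to vary like the control samples. For most of the other settings the share of all genes called is not given, so their counts describe the setting and not the 10 genes. The cause of these changes was not tested. Counting 16 separate arrays raises the number of samples and also gives knockout arrays 2 to 4 more weight against array 1, and these were not separated.

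Directions turned for some small differences. In white knockout 9 of 10 genes kept theirs under all alternatives, and Vwf was at 0.034 without arrays 2 to 4 (leave-one-out range -1.86 to 0.034). On unscaled values the median of all genes was 0.31 in brown knockout. There Cdh5 was at 0.055, Tie1 at 0.013, Vwf at 0.016, Emcn at 0.021 and the median of the 10 genes at 0.015. Relative to all genes that median was -0.29 with and without scaling, which is fixed, because scaling subtracts 1 value from each array. With normexp background it was -0.11 relative to all genes, and with quantile normalization -0.26. Vwf in brown knockout was at 0.137 without arrays 2 to 4 (leave-one-out range -0.964 to 0.137). Between control tissues Flt1 was at 0.588 and Tek at 0.316 with slide as a fixed block. Between knockout tissues Flt1 was at 0.092 and Emcn at 0.004 with 16 separate arrays and with the replicate block or random slide block, and with slide as a fixed block Flt1 was at 0.646, Emcn at 0.298 and Cdh5 at 0.011. Unscaled values there put Pecam1 at 0.020, Cdh5 at 0.031, Flt1 at 0.174 and Emcn at 0.088. Without the knockout arrays 2 to 4 Tek was at -0.326. Leaving out 1 sample at a time gave -0.636 to 0.127 for Cdh5, -0.746 to 0.351 for Emcn, -0.746 to 0.524 for Flt1 and -0.67 to 1.382 for Tek. For the median in the difference of effects it gave -0.198 to 0.808. The cause was not tested.

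Groups of 2 or 3 samples limit every p-value, and a p above the threshold does not show equal levels. The 10 genes were well above background on all arrays, so signal is not the limit for them. The brightest probe stood for each gene, and the Cdh5 and Vegfa probes differed in size of effect.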

Other observations

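Of 8 lymphatic vessel genes 7 had a lower mean in brown than in white controls, with a median log2 difference of -1.83, and 4 passed the threshold (limma), where 1.14% of all genes were called lower. These were Mmrn1, at -3.26 ± 0.35 (SE) with an adjusted p of 0.00312, Reln at -2.08 ± 0.36 (SE) with 0.0239, Flt4 at -1.59 ± 0.31 (SE) with 0.0335 and the hyaluronan receptor Lyve1, which macrophages can also express, at -2.30 ± 0.44 (SE) with 0.034. Mmrn1 was also lower in brown than in white knockouts, at -2.54 ± 0.38 (SE) with an adjusted p of 0.0255 (limma), where 0.213% of all genes were called lower. Without brown control arrays 2 and 3 Mmrn1 was called, at -3.28 with an adjusted p of 0.0187 (limma), where 1.95% of all genes were called. Reln, Flt4 and Lyve1 were not, at adjusted p of 0.0924, 0.118 and 0.101 (limma). In the knockout comparisons 6 of 8 had a higher mean in each tissue (medians 0.12 and 0.36), but 3 of 8 did in white fat on unscaled values and 3 of 8 in brown fat with normexp background, and none was called.

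Among mural cell genes, which mark pericytes and vascular smooth muscle, 4 of 12 had a lower mean in white knockout (median 0.51) and 12 of 12 in brown knockout (median -0.43), or 6 of 12 on unscaled values, with no call. Between control tissues Acta2, smooth muscle actin, passed and was 16.1-fold higher in brown fat with an adjusted p of 0.0105 (limma). Of all genes 3.93% were called higher there, the skeletal muscle markers among them. Without brown control arrays 2 and 3 Acta2 was at 3.75 with an adjusted p of 0.0456 (limma), where 1.95% of all genes were called. In the sample of white knockout arrays 2 to 4 the median was -1.01, below the controls, while array 1 lay above them.

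Among genes of the high endothelial venules through which lymphocytes enter lymph nodes, some varied widely within groups and others did not. On white control arrays Madcam1 ranged from -6.10 to -2.51 and Ackr1 from -0.11 to 0.23. Glycam1 was at -3.43, 3.96, 4.05 and -0.80 on white control arrays, at -3.82, 6.36, 6.17 and 6.20 on white knockout arrays, at 1.49, -3.69, -5.15 and -6.58 on brown control arrays and at 0.02, 5.95, 5.89 and 5.96 on brown knockout arrays. The B cell gene Cd79b, chosen after its values were seen as Glycam1 was, followed a like order, with 1.27, 3.94, 3.81 and 1.39 on white control, 2.62, 6.11, 6.31 and 6.33 on white knockout, 4.34, -0.30, -0.18 and -1.16 on brown control and 3.59, 5.68, 5.67 and 5.76 on brown knockout arrays. Of the 7 genes tested 4 had a higher mean in white knockout (median 0.00) and 7 in brown knockout (median 0.16), or 4 in brown knockout with normexp background, and none was called.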
